A study of Mus musculus with 17 samples.

Results

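Havcr1, Lcn2, Krt8, Krt18, Krt19, Krt20, Vcam1, Spp1, Clu and Sox9, genes known as markers of the injured kidney tubule, were followed in the RNA of 17 mouse kidneys. They were chosen by name, with earlier results of these data known. They are 10 of the 35971 genes to which the deposited transcripts were summed. All 10 were among the 17011 genes with enough counts to be tested. Kidney poly(A) RNA was sequenced as stranded libraries in 5 groups, all of which carry lsl-PRCC‐TFE3 KI, an allele of the PRCC‐TFE3 fusion of TFE3-rearranged renal cell carcinoma that stays silent until Cre recombinase removes a stop signal. The 4 Cre(−) mice lack Cre, and replicates 1 and 2 of them also carry Hif1α f/f, whereas replicates 3 and 4 carry no floxed Hif allele. The 3 PRCC‐TFE3 KI mice carry KSP-Cre, the 4 Hif1α KO mice carry KSP-Cre with Hif1α f/f, the 3 Hif2α KO mice carry it with Hif2α f/f, and the 3 DKO mice carry it with both floxed genes, and a KO kidney here always has the fusion too. KSP-Cre is driven by the Cadherin 16 promoter, which acts in tubular epithelium. The vessels, stroma and blood cells of these whole kidneys keep both Hif genes and the silent allele. No mouse without the fusion allele and no Hif knockout without the fusion was compared here, and the labels give neither age nor sex.

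Damaged tubular cells lose the transporters of the mature nephron and pass into a state in which they make keratin filaments, adhesion molecules and secreted proteins that are scarce in the healthy tubule. Some of these products, KIM-1 (from Havcr1) and NGAL (from Lcn2) above all, reach the urine and are measured as clinical signs of acute kidney injury. SOX9 is a transcription factor that surviving tubular cells switch on during repair, and cells that keep VCAM1 have been described as failing to complete it.

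Library totals lay between 16504419 and 24668827 expected counts. Values are CPM, counts scaled to a common library size with edgeR's TMM factors. Gpnmb, which the study names as a direct target of the fusion, lay at 0.993 to 2.14 CPM in Cre(−) kidneys, 13009 to 15629 in PRCC‐TFE3 KI kidneys, 3269 to 7452 in Hif1α KO, 4953 to 11387 in Hif2α KO and 2806 to 6415 in DKO kidneys. Hif1a RNA was 184 to 232 CPM in KI and 163 to 198 in Hif1α KO kidneys, and Epas1 RNA, which encodes HIF2α, was 173 to 192 CPM in KI and 136 to 149 in Hif2α KO kidneys. Neither difference passed the edgeR test used below, and sums over a whole gene in a whole kidney do not check a deletion of part of that gene in the tubule alone. Summed markers of the proximal tubule (14 genes) were 22645 to 29407 CPM in Cre(−), 1018 to 1327 CPM in KI and 1018 to 3796 CPM over all 13 kidneys with Cre, so the defining genes of kidney tissue were present in every library but at a much lower level with Cre. Bulk RNA cannot tell fewer cells of a type from less RNA per cell, nor a rise in every tubular cell from a rise in a few.

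The RefSeq promoter table (GRCm38.p6, 250 bases before to 50 bases after a start) held 9 windows for 6 of the 10 genes, and Krt19, Vcam1, Clu and Sox9 had no entry. The 5 windows below are shown because they belong to the genes of the widest rise (Havcr1 and Lcn2) and to 3 of the keratins, which rose to different degrees. Capitals mark every match, on either strand, to the letters searched. The M-box, bound by TFE3 and its relatives, was searched as TCACATGA or TCACGTGA or TCATATGA or TCATGTGA. The general E-box was CACGTG. The hypoxia response core was ACGTG or GCGTG, the first of which also lies within that E-box. AP-1 was searched as TGANTCA, and STAT as TTCNNNGAA. NF-κB was searched by its usual motif, and the TATA box TATAAA, the CCAAT box and the GC box GGGCGG were included. Positions count from 1 at the RefSeq start, with -1 just before it. The Havcr1 window is the one whose start is that of transcript Havcr1-203, and the starts of the Lcn2, Krt20 and Krt18 windows lie 17, 3 and 36 bases from the nearest start in GENCODE M21, whereas that of Krt8 lies 140 bases away.
Havcr1 promoter, chr11:46750261-46750560, plus strand: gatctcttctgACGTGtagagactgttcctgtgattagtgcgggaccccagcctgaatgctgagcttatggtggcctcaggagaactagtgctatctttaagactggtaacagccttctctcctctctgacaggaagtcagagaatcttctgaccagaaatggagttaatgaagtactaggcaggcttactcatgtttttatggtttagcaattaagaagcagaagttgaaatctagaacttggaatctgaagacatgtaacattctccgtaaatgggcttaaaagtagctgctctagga
Lcn2 promoter, chr2:32387690-32387989, minus strand: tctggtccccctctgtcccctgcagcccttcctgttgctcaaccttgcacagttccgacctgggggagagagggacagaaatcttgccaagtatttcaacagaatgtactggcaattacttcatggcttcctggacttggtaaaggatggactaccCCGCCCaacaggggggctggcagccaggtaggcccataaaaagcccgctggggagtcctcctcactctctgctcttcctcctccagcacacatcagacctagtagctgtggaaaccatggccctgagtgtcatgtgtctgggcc
Krt8 promoter, chr15:102004293-102004592, minus strand: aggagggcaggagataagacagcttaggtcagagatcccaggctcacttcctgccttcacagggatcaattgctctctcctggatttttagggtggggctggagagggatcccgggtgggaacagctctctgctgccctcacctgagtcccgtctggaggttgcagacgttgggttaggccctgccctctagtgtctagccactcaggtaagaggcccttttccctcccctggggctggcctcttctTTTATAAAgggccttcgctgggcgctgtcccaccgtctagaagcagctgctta
Krt18 promoter, chr15:102027966-102028265, plus strand: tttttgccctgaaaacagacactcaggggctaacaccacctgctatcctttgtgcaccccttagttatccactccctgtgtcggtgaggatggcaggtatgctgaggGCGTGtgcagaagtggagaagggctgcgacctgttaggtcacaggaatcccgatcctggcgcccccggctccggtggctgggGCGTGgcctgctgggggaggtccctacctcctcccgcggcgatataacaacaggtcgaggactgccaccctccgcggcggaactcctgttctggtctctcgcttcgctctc
Krt20 promoter, chr11:99438104-99438403, minus strand: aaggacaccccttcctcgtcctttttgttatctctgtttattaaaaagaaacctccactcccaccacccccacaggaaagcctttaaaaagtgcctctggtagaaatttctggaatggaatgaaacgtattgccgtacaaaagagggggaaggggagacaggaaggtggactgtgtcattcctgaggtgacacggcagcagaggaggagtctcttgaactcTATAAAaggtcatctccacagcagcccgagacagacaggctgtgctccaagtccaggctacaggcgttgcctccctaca

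Among the 9 windows, 0 held an M-box, which is present in 2.26% of all 32851 promoter windows of this length, and 0 held the general E-box (7.15% of all), a STAT match (8.30% of all) or an NF-κB match (4.51% of all). A hypoxia core stood in 3 windows, against 43.8% of all, at position -239 of the printed Havcr1 window and at positions -143 and -61 of the Krt18 window, and the third was the window at the start of Havcr1-201. That window also held the 1 match to AP-1 (7.81% of all). The GC box (35.7% of all) lay at -94 in Lcn2, and 1 of the Spp1 windows, which are not printed, held a CCAAT box (37.4% of all). A TATA box lay at position -29 in Krt20, at -1 in Krt8 (and at -3 on the other strand) and in that Spp1 window, against 13.6% of all. A match describes these letters only, and the absence of one describes only these 300 bases.

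Set against Cre(−) kidneys, 9 of the 10 markers rose in PRCC‐TFE3 KI kidneys and 1, Clu, did not pass the test (edgeR's quasi-likelihood F test, Benjamini-Hochberg adjustment), where 31.6% of all tested genes were called higher and 29.3% lower. The median log2 fold change of the 10 was 3.30, and that of all tested genes was 0.03. Since the 10 were chosen with earlier results of these data known, these shares and medians describe the set and do not test it. In Hif1α KO, Hif2α KO and DKO kidneys 10 of 10 rose against the same Cre(−) mice, with 31.9%, 32.0% and 30.4% of all genes called higher. For 9 markers, all but Clu, each of the 13 kidneys with Cre lay above each of the 4 Cre(−) kidneys, an arrangement seen in 20.1% of tested genes. The 4 comparisons share their Cre(−) samples and are not independent of each other.

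**Figure D1:**
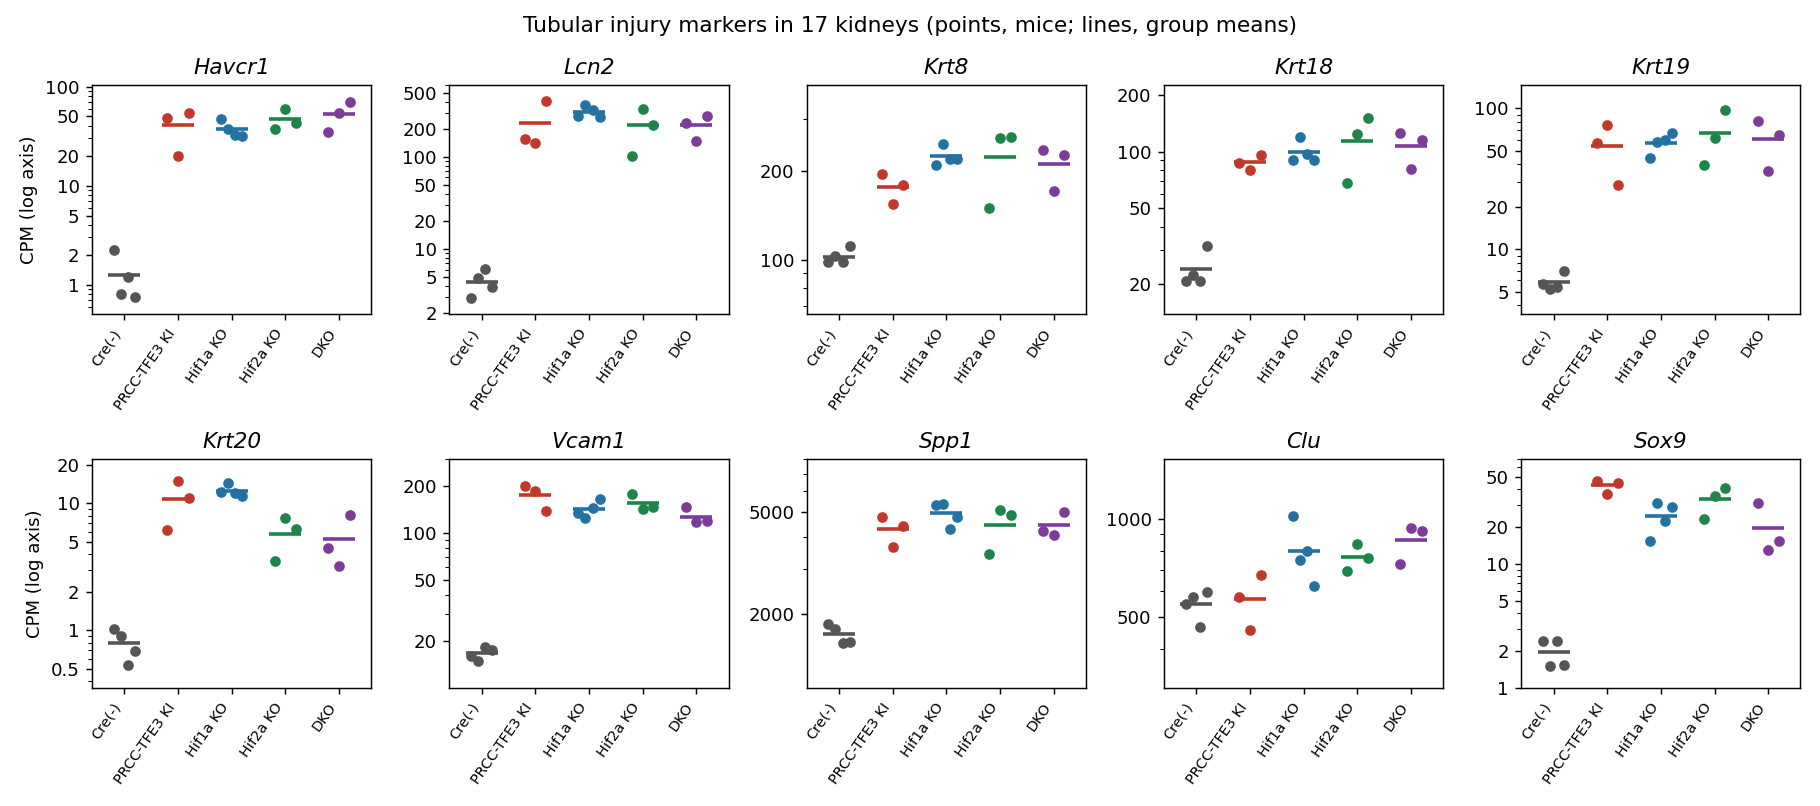
CPM of the 10 markers (log axis) in the 17 kidneys, one panel per gene, with a point per mouse and a line at the mean of each group. All 13 kidneys with Cre lie above the 4 Cre(−) kidneys in every panel except that of Clu, and the vertical ranges differ between panels.

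Havcr1 encodes KIM-1, a surface receptor for phosphatidylserine by which injured proximal tubule cells engulf dead neighbours, and whose outer part is shed into urine. The gene (chr11:46735080-46779578, plus strand, ENSMUSG00000040405.13, in GRCm38 coordinates as for all genes here) had 2.26, 0.803, 1.19 and 0.758 CPM in the 4 Cre(−) kidneys against 48.3, 19.8 and 53.8 CPM in the 3 KI kidneys. The values were 47.5, 37.7, 32.3 and 31.9 CPM in Hif1α KO, 37.5, 59.9 and 43.4 CPM in Hif2α KO and 34.8, 54.4 and 69.4 CPM in DKO kidneys. The groups with Cre overlapped each other and none reached down to a Cre(−) value, with KI replicate 2 the lowest. The rise in KI kidneys was 33.0-fold (log2 5.04, standard error 0.42, adjusted p = 7.91e-08, edgeR's quasi-likelihood F test, Benjamini-Hochberg adjustment), and in the 3 KO groups the log2 fold changes over Cre(−) were 4.92 to 5.42. Of the 4 transcripts listed for Havcr1, Havcr1-203, whose promoter window is printed above, held 67.8% to 81.6% of the gene's TPM (a unit that also divides by transcript length) in the 13 kidneys with Cre.

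Lcn2 encodes NGAL, a small secreted protein that binds bacterial iron carriers and is released by injured distal tubule and by neutrophils. In Cre(−) kidneys the gene (chr2:32384633-32388252, minus strand, ENSMUSG00000026822.14) stood at 2.95, 4.82, 6.02 and 3.85 CPM, and in KI kidneys at 157, 143 and 406 CPM. Hif1α KO kidneys had 280.4, 369.7, 328 and 270.0 CPM, Hif2α KO kidneys 102, 336 and 225 CPM and DKO kidneys 237, 149.8 and 281 CPM. KI replicate 3 was the highest of all 17 kidneys and Hif2α KO replicate 1 the lowest of those with Cre, yet even that kidney lay far above every Cre(−) value. The log2 fold change over Cre(−) was 5.73 in KI kidneys (standard error 0.46, 53.1-fold, adjusted p = 6.56e-08, edgeR's quasi-likelihood F test, Benjamini-Hochberg adjustment), the widest of the 10, and 5.64 to 6.14 in the KO groups. By TPM, Lcn2 moved from rank 8750 to 10830 among all genes in Cre(−) kidneys to rank 180 to 450 in KI kidneys. Summed neutrophil markers (9 genes, S100a8, S100a9, Ngp, Camp, Ltf, Mpo, Cxcr2, Retnlg and Csf3r) were 4.55 to 8.02 CPM in Cre(−) kidneys and 6.18 to 11.2 CPM in the kidneys with Cre, and 6 of the 9 stayed under 1 CPM in each kidney with Cre.

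Spp1 encodes osteopontin, a secreted phosphoprotein that binds integrins and CD44 and limits crystal growth in urine, and it is made by healthy distal nephron as well as by injured tubule and macrophages. The gene (chr5:104435118-104441050, plus strand, ENSMUSG00000029304.14) was abundant already in Cre(−) kidneys, with 1830.1, 1740.4, 1545 and 1561 CPM, and reached 4778, 3642 and 4405 CPM in KI kidneys. The KO groups had 5309, 5358, 4261 and 4775 CPM (Hif1α KO), 3416, 5093 and 4837 CPM (Hif2α KO) and 4204, 4073 and 4978 CPM (DKO). Every kidney with Cre exceeded every Cre(−) kidney, and the 4 groups with Cre overlapped one another. Its fold was modest (2.56-fold in KI, log2 1.36, standard error 0.14, adjusted p = 8.36e-07, edgeR's quasi-likelihood F test, Benjamini-Hochberg adjustment), but per length Spp1 was the largest of the 10 at 4840.4 ± 680.4 TPM (mean ± SD, n = 3). It ranked 19 to 23 among all genes of a KI kidney, against 43 to 49 in Cre(−) kidneys. Summed macrophage markers (8 genes) also differed, with 198 to 266 CPM in Cre(−), 1775 to 1941 CPM in KI kidneys and 1149.9 to 1941 CPM over all kidneys with Cre. Their part in the Spp1 value was not tested.

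Clu encodes clusterin, a secreted chaperone that coats misfolded proteins and is raised in many forms of kidney damage. The gene (chr14:65968483-65981547, plus strand, ENSMUSG00000022037.15) was the 1 marker with no call in KI kidneys, where it had 575, 455 and 675 CPM against 549.7, 575, 467 and 595 CPM in Cre(−) kidneys. In Hif1α KO kidneys it had 1021, 747, 799 and 622 CPM, in Hif2α KO 691, 841 and 760.3 CPM and in DKO 726, 939 and 920.5 CPM. KI and Cre(−) values overlapped, but each KO kidney lay above each Cre(−) kidney, Hif1α KO replicate 4 by the smallest margin. The log2 fold change in KI was 0.06 (95% interval -0.29 to 0.40, adjusted p = 0.787, edgeR's quasi-likelihood F test, Benjamini-Hochberg adjustment). It was 0.54 in Hif1α KO, 0.48 in Hif2α KO and 0.66 in DKO kidneys, with adjusted p of 0.00559, 0.0172 and 0.00265 by the same edgeR test. On log2(TPM + 1) the median of all genes itself shifted by 0.38 in KI against Cre(−). Clu in KI then stood at a log2 fold change of 0.49 on log2(TPM + 1) and passed limma's test (adjusted p = 0.00668), which is 0.11 relative to that median. The call in Hif2α KO kidneys was lost without Cre(−) replicate 3 (log2 0.41, adjusted p = 0.052) and without Hif2α KO replicate 2 (log2 0.41, adjusted p = 0.0741), both by edgeR's quasi-likelihood F test.

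**Figure D2:**
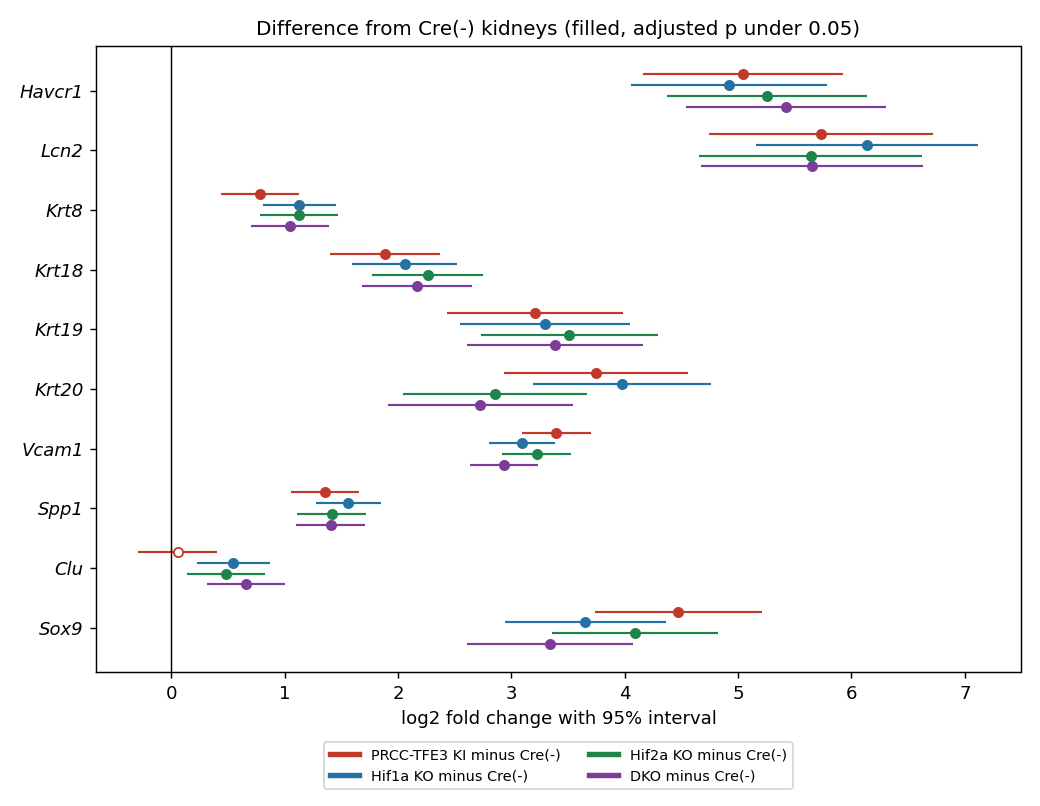
Log2 fold change of each marker over Cre(−) kidneys with its 95% interval, for the KI, Hif1α KO, Hif2α KO and DKO kidneys, where filled points passed edgeR's quasi-likelihood F test and the open point did not. The values run from 0.06 for Clu in KI kidneys to 6.14 for Lcn2 in Hif1α KO kidneys, with Lcn2 and Havcr1 farthest to the right in every group.

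Keratins are filament proteins that pair a type II member with a type I member. In the simple epithelium of the kidney Krt8 is a type II partner of the type I keratins Krt18, Krt19 and Krt20. The 4 keratins rose by unequal amounts in KI kidneys, 1.72-fold for Krt8, 3.69-fold for Krt18, 9.24-fold for Krt19 and 13.4-fold for Krt20 (edgeR's quasi-likelihood F test, Benjamini-Hochberg adjustment, adjusted p = 0.000596, 3.85e-06, 1.97e-06 and 6.39e-07). Krt8 (chr15:101996698-102004482, minus strand, ENSMUSG00000049382.10) and Krt18 (chr15:102028180-102032027, plus strand, ENSMUSG00000023043.7) are transcribed away from each other and have starts 23698 bases apart. Krt8 had 98.2, 103, 98.2 and 111 CPM in Cre(−) and 195, 154 and 180.2 CPM in KI kidneys, with 211, 247, 219.7 and 221 CPM in Hif1α KO, 150.3, 258 and 262 CPM in Hif2α KO and 237, 172 and 228 CPM in DKO kidneys. The Cre(−) values sat within a narrow band and every other kidney stood above it. Krt18 had 20.7, 22.2, 20.7 and 31.6 CPM in Cre(−) and 87.3, 80.2 and 96.0 CPM in KI kidneys, with 90.3, 119, 96.8 and 90.8 CPM in Hif1α KO, 68.5, 124 and 150.2 CPM in Hif2α KO and 125, 81.0 and 115 CPM in DKO kidneys. Hif2α KO held both the lowest Krt18 value with Cre (replicate 1) and the highest (replicate 3), a wider spread than that between the group means. A processed pseudogene of Krt8 (Krt8-ps) was listed at no more than 4.14 expected counts in any library.

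Krt19, the smallest keratin and a marker of ducts and transitional epithelium (chr11:100140810-100148665, minus strand, ENSMUSG00000020911.14), had 5.69, 5.19, 5.43 and 7.01 CPM in Cre(−) and 57.0, 76.0 and 28.4 CPM in KI kidneys. The KO groups had 44.7, 57.2, 59.5 and 67.3 CPM (Hif1α KO), 39.9, 62.0 and 97.7 CPM (Hif2α KO) and 81.9, 36.2 and 64.7 CPM (DKO). KI replicate 3 was the lowest kidney with Cre and Hif2α KO replicate 3 the highest, and the lowest was still over the Cre(−) range. Krt20, known from urothelium and gut and switched on in injured tubule (chr11:99428403-99438150, minus strand, ENSMUSG00000035775.2), was a scarce transcript, with 1.03, 0.910, 0.530 and 0.694 CPM in Cre(−) and 6.21, 15.0 and 11.0 CPM in KI kidneys. It had 12.2, 14.5, 12.2 and 11.5 CPM in Hif1α KO, 3.50, 7.61 and 6.23 CPM in Hif2α KO and 4.48, 3.21 and 8.10 CPM in DKO kidneys. The 4 Hif1α KO values were all above the highest DKO and Hif2α KO values.

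Compared per length in TPM, the balance of these type I keratins to Krt8 differed between kidneys with and without Cre. Other type II keratins were not counted in it. The Krt18 to Krt8 ratio was 0.318 ± 0.0494 (SD, n = 4) in Cre(−) and 0.691 ± 0.0641 (SD, n = 3) in KI kidneys, and it ran from 0.568 to 0.793 over the 13 kidneys with Cre. The sum of the 3 type I keratins was 0.401 to 0.525 times Krt8 in Cre(−) kidneys and 1.08 to 1.79 times Krt8 with Cre. Neither ratio overlapped between the 4 Cre(−) and the 13 other kidneys (exact permutation test of the log2 ratio, two-sided p = 0.00084 for each, the smallest this design gives). The ratios were chosen after the data were seen and restate the unequal rises of the same keratins in the same kidneys. Their p-values are therefore descriptive and add no separate evidence. The Krt19 share of the sum rests on how reads were divided among its transcripts, since the short processed transcript Krt19-203 took 71.0% to 80.4% of the gene's TPM with Cre and 65.5% to 74.0% without it.

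**Figure D3:**
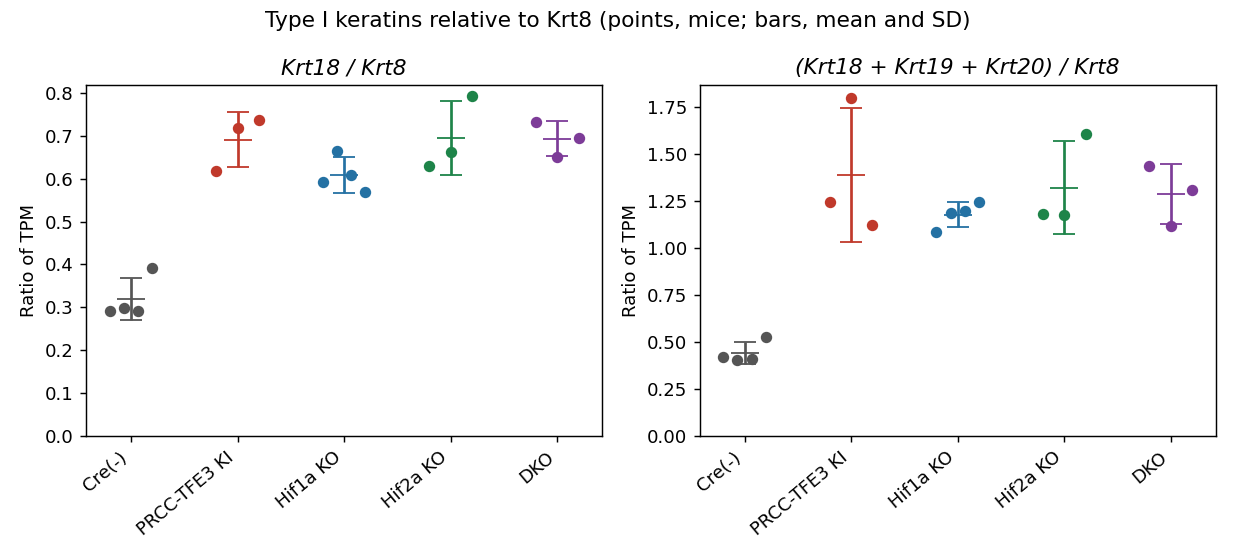
Ratio of TPM of Krt18 to Krt8 (left) and of Krt18, Krt19 and Krt20 together to Krt8 (right), with a point per mouse and bars for the mean and SD of each group. On the left the Cre(−) kidneys lie at or below 0.392 and all kidneys with Cre at or above 0.568, and on the right only kidneys with Cre exceed a ratio of 1.

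Vcam1 encodes an adhesion receptor for the α4 integrins of leukocytes, present on endothelium, some macrophages and damaged tubule. For the gene (chr3:116109949-116129688, minus strand, ENSMUSG00000027962.14) the values were 16.1, 15.0, 18.3 and 17.5 CPM in Cre(−) and 201, 187 and 139 CPM in KI kidneys, and they were 135, 125, 146 and 166 CPM in Hif1α KO, 179, 142 and 146 CPM in Hif2α KO and 146, 118 and 119 CPM in DKO kidneys. No kidney with Cre came near the Cre(−) range, and KI replicates 1 and 2 were the highest of all. The rise in KI was 10.5-fold (log2 3.39, standard error 0.14, adjusted p = 1.2e-10, edgeR's quasi-likelihood F test, Benjamini-Hochberg adjustment), the smallest p of the 10. Summed endothelial markers (6 genes) were 339 to 466 CPM in Cre(−) and 277 to 286 CPM in KI kidneys, so they did not rise with Vcam1. The macrophage sum given for Spp1 did, and its part in the Vcam1 value was not tested.

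Sox9 (chr11:112782224-112787760, plus strand, ENSMUSG00000000567.5) had 2.40, 1.50, 2.38 and 1.52 CPM in Cre(−) kidneys and 47.0, 36.9 and 44.9 CPM in KI kidneys. It had 15.4, 30.9, 22.0 and 29.0 CPM in Hif1α KO, 23.1, 35.5 and 40.5 CPM in Hif2α KO and 30.7, 12.9 and 15.3 CPM in DKO kidneys. The KI values lay above all Hif1α KO and all DKO values and overlapped those of Hif2α KO. The rise over Cre(−) was 22.2-fold in KI (log2 4.47, standard error 0.35, adjusted p = 4.26e-08, edgeR's quasi-likelihood F test, Benjamini-Hochberg adjustment), with log2 fold changes of 3.65, 4.09 and 3.34 in Hif1α KO, Hif2α KO and DKO kidneys.

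Among the kidneys with Cre, the question was whether loss of Hif1α, Hif2α or both changed the level of these markers. Against KI kidneys, 0 of 10 were called in Hif1α KO and 0 of 10 in Hif2α KO kidneys by edgeR's quasi-likelihood F test, Benjamini-Hochberg adjustment, while 5.44% and 1.39% of all tested genes were called in either direction. At an unadjusted p under 0.05, 3 markers passed in Hif1α KO (Vcam1, Clu and Sox9, with 22.1% of all genes) and 2 in Hif2α KO (Krt20 and Clu, with 19.2%). DESeq2 called 1 in Hif1α KO (Clu, adjusted p = 0.0383) and 0 in Hif2α KO. Of all 17011 tested genes DESeq2 called 782 higher and 883 lower in Hif1α KO, and 532 higher and 483 lower in Hif2α KO. In DKO kidneys 3 of 10 were called, Clu higher and Vcam1 and Sox9 lower, where 6.53% of all genes were called higher and 6.19% lower. The 3 comparisons share the same 3 KI kidneys.

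Sox9 fell by 1.13 on the log2 scale in DKO relative to KI kidneys (standard error 0.31, adjusted p = 0.029, edgeR's quasi-likelihood F test, Benjamini-Hochberg adjustment), and the 2 groups did not overlap, an order seen in 17.2% of tested genes. In Hif1α KO kidneys the difference was -0.82 (95% interval -1.42 to -0.21, adjusted p = 0.107 by the same edgeR test), again without overlap (10.3% of tested genes). In Hif2α KO kidneys it was -0.38 (95% interval -1.03 to 0.27). Clu differed by 0.60 in DKO (standard error 0.17, adjusted p = 0.0361, edgeR's quasi-likelihood F test, Benjamini-Hochberg adjustment), with all 3 DKO values above all 3 KI values (16.5% of tested genes). The Clu difference was 0.49 in Hif1α KO and 0.43 in Hif2α KO kidneys, neither called, and the latter also came without overlap (9.52% of tested genes). Vcam1 fell by 0.46 in DKO (standard error 0.14, adjusted p = 0.0462, edgeR's quasi-likelihood F test, Benjamini-Hochberg adjustment), although DKO replicate 1 lay above KI replicate 3. Each of the 3 calls was near the threshold. DESeq2 called the same 3 and Krt20, and of all 17011 tested genes it called 1446 higher and 1459 lower. In an edgeR fit of the KI and DKO groups alone 0 of 10 passed. Sox9 lost its call in edgeR's quasi-likelihood F test without KI replicate 1 (adjusted p = 0.06), KI replicate 3 (0.0822), DKO replicate 2 (0.129) or DKO replicate 3 (0.117). Clu lost it without KI replicate 1 (adjusted p = 0.0634 by the same edgeR test), KI replicate 2 (0.123), DKO replicate 2 (0.132) or DKO replicate 3 (0.115), and Vcam1 without the same 4 libraries (0.139, 0.118, 0.166 and 0.154). Gpnmb differed by -1.80 between the same groups. The proximal tubule sum was 1018 to 1327 CPM in KI and 2063 to 3376 CPM in DKO. The macrophage sum was 1775 to 1941 and 1149.9 to 1508 CPM and the fibroblast and pericyte sum was 637 to 674 and 894 to 1331 CPM. Of the 8 macrophage markers 1 was called higher and 1 lower in DKO against KI, and 6 were not called. Their median log2 fold change was 0.17, so the lower sum does not describe most of them. Of all tested genes 6.53% were called higher and 6.19% lower. The part of Gpnmb or of any of these sums in the 3 results was not tested.

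**Figure D4:**
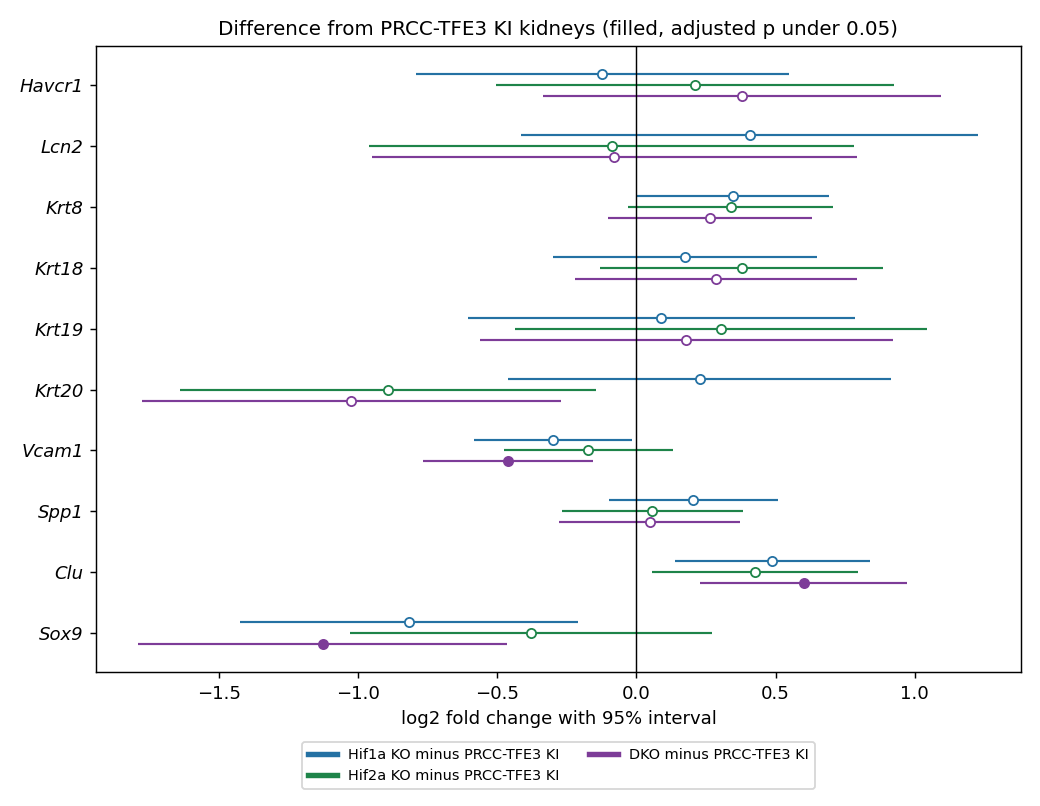
Log2 fold change of each marker in Hif1α KO, Hif2α KO and DKO kidneys relative to KI kidneys, with 95% intervals, where filled points passed edgeR's quasi-likelihood F test at an adjusted p under 0.05. Filled points are the DKO values of Vcam1, Clu and Sox9, and the intervals of Havcr1, Lcn2, Krt8, Krt18, Krt19 and Spp1 include 0 in each group. That of Krt8 in Hif1α KO kidneys includes 0 only just.

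For the 2 urinary markers the intervals were wide. Havcr1 differed from KI by -0.12 (95% interval -0.79 to 0.55) in Hif1α KO, 0.21 (-0.51 to 0.92) in Hif2α KO and 0.38 (-0.33 to 1.10) in DKO kidneys. The corresponding values of Lcn2 were 0.41 (-0.41 to 1.23), -0.09 (-0.96 to 0.78) and -0.08 (-0.95 to 0.79). These intervals leave room for a change of these markers in either direction. Spp1 was measured more tightly, at 0.20 (-0.10 to 0.51), 0.06 (-0.27 to 0.38) and 0.05 (-0.28 to 0.37). Krt8 differed by 0.35, 0.34 and 0.26, Krt18 by 0.17, 0.38 and 0.29, and Krt19 by 0.09, 0.30 and 0.18, in the order Hif1α KO, Hif2α KO and DKO, and none of these 9 passed the test. All 4 Hif1α KO kidneys exceeded the 3 KI kidneys in Krt8, an order that 8.96% of tested genes showed. The 95% interval of that Krt8 difference ran from -7.29e-05 to 0.69 and so only just included 0. Its adjusted p was 0.226 (edgeR's quasi-likelihood F test, unadjusted p = 0.05004).

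Krt20 was the marker with the widest differences among the KO groups. Relative to KI it differed by 0.23 in Hif1α KO (95% interval -0.46 to 0.92), by -0.89 in Hif2α KO (-1.64 to -0.15) and by -1.03 in DKO kidneys (-1.78 to -0.27), none called. Hif1α KO exceeded Hif2α KO by 1.12 (standard error 0.33) without overlap (8.31% of tested genes). DKO differed from Hif1α KO by -1.25 (standard error 0.34), also without overlap (8.54% of tested genes). Neither passed edgeR's quasi-likelihood F test, Benjamini-Hochberg adjustment (adjusted p = 0.137 and 0.125), whereas both passed DESeq2's test (adjusted p = 0.0407 and 0.0213). Of all 17011 tested genes DESeq2 called 340 higher and 197 lower in the former comparison, and 154 higher and 264 lower in the latter. DKO and Hif2α KO kidneys overlapped, with a difference of -0.13 (-0.89 to 0.62). Summed urothelial markers (7 genes) ran from 46.4 to 167 CPM in Hif1α KO to 98.6 to 297 in Hif2α KO and 51.3 to 201 CPM in DKO kidneys. These ranges overlapped, and their part in the Krt20 values was not tested.

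Between the KO groups themselves, 0 of 10 markers were called by edgeR's quasi-likelihood F test, Benjamini-Hochberg adjustment in Hif1α KO against Hif2α KO (with 0.429% of all genes called), 0 in DKO against Hif1α KO (0.406% of all genes) and 0 in DKO against Hif2α KO (0.00588% of all genes). At an unadjusted p under 0.05 the counts were 1 (Krt20), 1 (Krt20) and 1 (Sox9), with 14.9%, 13.0% and 5.58% of all genes. DESeq2 called 1 (Krt20), 1 (Krt20) and 0. Of all 17011 tested genes it called 340 higher and 197 lower, 154 and 264, and 10 and 8, in the same order. Whether the loss of Hif2α acted differently with and without Hif1α was tested as an interaction, that is, the DKO to Hif1α KO difference minus the Hif2α KO to KI difference. The interaction ran from -0.42 for Krt8 (95% interval -0.93 to 0.08) to 0.29 for Havcr1 (-0.68 to 1.27), where 0 of 10 passed edgeR's quasi-likelihood F test after adjustment (0% of all genes) and 0 of 10 at an unadjusted p under 0.05 (5.95% of all genes). DESeq2 called 0 of 10, and of all 17011 tested genes it called 10 with a positive and 21 with a negative interaction.

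In some groups a single kidney was the lowest for most of the markers. How often the same kidney was lowest over all tested genes was not examined. Hif2α KO replicate 1 was the lowest of its group for 9 of 10 markers, Vcam1 being the exception, and its proximal tubule sum was 3202 CPM against 1074 and 1306 CPM in replicates 2 and 3. DKO replicate 2 was the lowest of its group for 8 of 10, with 3376 CPM of proximal tubule markers against 2063 and 2359.7 CPM. KI replicate 2 was the lowest for 7 of 10, and there the proximal tubule sum was the lowest too, at 1018 CPM against 1161 and 1327 CPM. Its adipocyte markers (6 genes) stood at 759 CPM against 53.6 and 82.5 CPM. The part of these cell type differences in the marker values was not tested. Without Hif2α KO replicate 1 the counts stayed at 10 of 10 called against Cre(−) and 0 of 10 against KI kidneys, and without KI replicate 2 at 9 of 10 in KI against Cre(−).

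Each marker was related to the summed markers of urothelium, proximal tubule, macrophage and fibroblast with pericyte over the 13 kidneys with Cre, on the log2 scale, which made 40 relations with Benjamini-Hochberg adjustment over all of them. The permutations moved kidneys freely across genotype groups, so their p-values, here and in the next paragraph, also reflect differences between those groups. Values after subtraction of group means were not tested. Krt19 followed the urothelial sum, with Pearson's r = 0.85 (permutation test, two-sided p = 0.00026, adjusted p = 0.00347, n = 13) and Spearman's rho = 0.87 (permutation p = 0.00023, adjusted p = 0.00733). The relation held without the 2 kidneys farthest from the median of the sum (r = 0.90, n = 11) and after each group's mean was subtracted (r = 0.87). The urothelial sum was 27.8 to 48.2 CPM in Cre(−) and 34.2 to 210.2 CPM in KI kidneys, and its part in the Krt19 level was not tested. For the other keratins the relation did not pass after adjustment (r = 0.19 for Krt8, 0.25 for Krt18 and -0.12 for Krt20).

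Sox9 ran opposite to the proximal tubule sum, with Pearson's r = -0.87 (permutation test, two-sided p = 0.00024, adjusted p = 0.00347, n = 13) and Spearman's rho = -0.85 (permutation p = 0.00051, adjusted p = 0.00733). Without the 2 farthest kidneys r was -0.78, and after subtraction of group means it was -0.77. After that subtraction Krt8 (-0.78), Krt18 (-0.78) and Krt19 (-0.67) were also inverse to the proximal tubule sum, although over the 13 kidneys as they stood these 3 gave -0.23, -0.38 and -0.40 and did not pass. Krt20 (-0.55), Lcn2 (-0.54) and Spp1 (-0.44) were inverse as well after it, while Clu (0.34), Vcam1 (0.13) and Havcr1 (0.11) were not. Sox9 also followed the macrophage sum, with Pearson's r = 0.85 (permutation test, two-sided p = 0.00023, adjusted p = 0.00347, n = 13) and Spearman's rho = 0.85 (permutation p = 0.00055, adjusted p = 0.00733), which was 0.86 without the 2 farthest kidneys and 0.60 within groups. That sum need not follow its 8 genes singly. In DKO against KI 1 of them was called higher, 1 lower and 6 were not called (6.53% and 6.19% of all tested genes were called higher and lower). Clu followed the fibroblast and pericyte sum by Pearson's r alone (r = 0.77, permutation adjusted p = 0.0176, and adjusted p = 0.0573 for rho), as Sox9 did inversely (r = -0.72, permutation adjusted p = 0.0434, and 0.17 for rho). After subtraction of group means these 2 values of r were 0.50 and -0.59. The other 35 relations did not pass. All values of a kidney share its library and scaling.

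**Figure D5:**
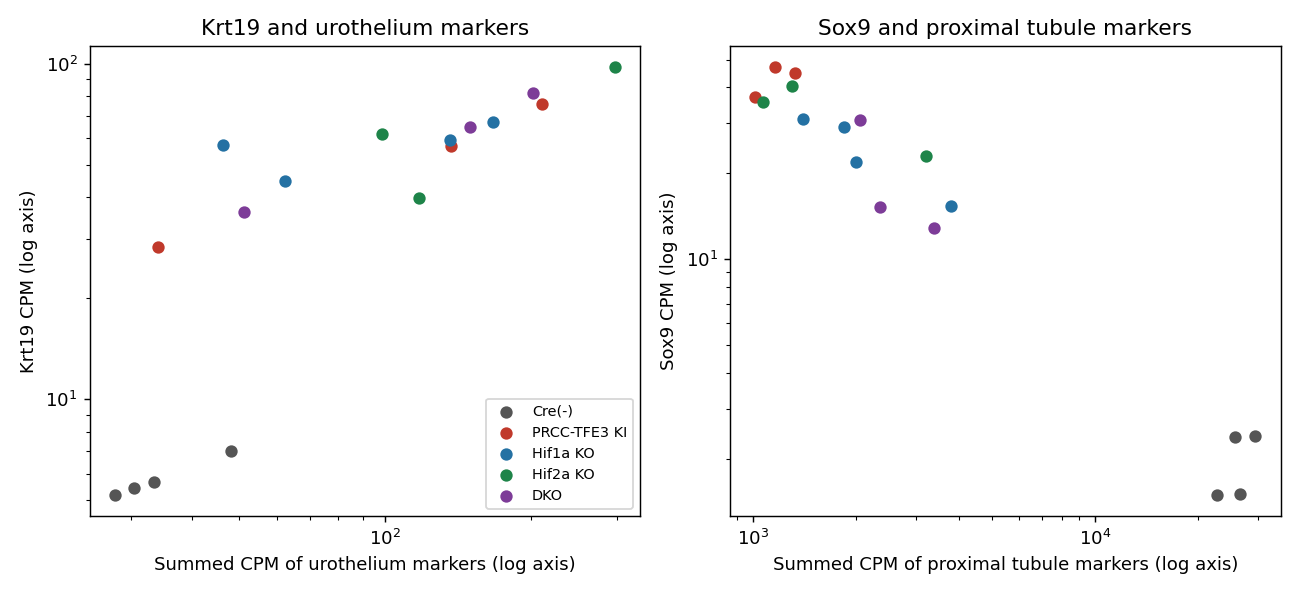
Krt19 CPM against the summed CPM of 7 urothelial markers (left) and Sox9 CPM against the summed CPM of 14 proximal tubule markers (right), on log axes, with a point per kidney coloured by group. The 13 kidneys with Cre form a rising band on the left and a falling band on the right, and the 4 Cre(−) kidneys lie apart in both.

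A wider list of genes of the injured tubule was examined by the same edgeR test. Of its 35 tested members 31 rose and 3 fell in KI relative to Cre(−) kidneys, with a median log2 fold change of 2.24, where 31.6% of all genes rose. The lists in this and the next paragraphs share some genes, such as Egf, Umod, Cd44 and Lrp2. They too were chosen with earlier results of these data known, so their counts beside those of all genes are descriptive. In the wider list the matrix protease gene Mmp7 stood at 0 to 0.331 CPM in Cre(−) and 19.0 to 65.9 CPM in KI kidneys. The stress cytokine gene Gdf15 rose from 2.46 ± 0.524 to 102 ± 13.9 CPM, and complement C3 rose from 58.9 ± 15.1 to 1385 ± 689 CPM (mean ± SD, n = 4 and 3). Against KI kidneys, 1 member rose and 2 fell in Hif1α KO, 0 passed in Hif2α KO, and 1 rose and 6 fell in DKO kidneys. Of all tested genes 5.44% passed in Hif1α KO and 1.39% in Hif2α KO, and 6.53% rose and 6.19% fell in DKO kidneys. The stress-induced transcription factor gene Atf3 fell by 1.19 in Hif1α KO and by 1.58 in DKO on the log2 scale. The heme oxygenase gene Hmox1 fell by 1.31 in DKO kidneys, while Prom1, a stem and tubule surface marker, rose by 0.63 in Hif1α KO kidneys.

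Of 12 other urinary or clinical markers tested, 7 rose and 4 fell in KI over Cre(−) kidneys, against 31.6% and 29.3% of all tested genes. Timp2, an inhibitor of matrix proteases, rose from 79.5 ± 11.2 to 559 ± 164 CPM. Egf, the growth factor of the distal nephron, fell from 2069.9 ± 221 to 19.0 ± 6.32 CPM and Fabp1, a proximal fatty acid binder, stood at 19.2 ± 19.2 and 0.624 ± 0.381 CPM. Against KI kidneys 3 of the list rose and 2 fell in Hif1α KO kidneys, and 3 rose and 2 fell in DKO kidneys. In these comparisons 5.44% of all tested genes passed in Hif1α KO, and 6.53% rose and 6.19% fell in DKO kidneys. Egf and the uromodulin gene Umod, both also in the thick ascending limb list, were higher than in KI in Hif1α KO (log2 2.71 and 1.48) and DKO kidneys (2.61 and 1.75). The others called, named after their values were seen, were Igfbp7, a cell cycle arrest marker, at 0.45 and 0.61, the glutathione transferase gene Gstp1 at -0.57 and -0.98, and the cytokine gene Mif at -0.53 and -0.84, in the order Hif1α KO and DKO. Umod was the only one of the list to pass in Hif2α KO (log2 1.21), where 1.39% of all tested genes passed. The summed thick ascending limb markers (6 genes) were 7419.6 to 9548 CPM in Cre(−), 863 to 1531 in KI, 2161 to 4602 in Hif1α KO, 1992 to 3816 in Hif2α KO and 2796 to 4653 CPM in DKO kidneys. This sum was thus higher in every KO kidney than in the KI kidneys, whereas their Havcr1 and Lcn2 values overlapped those of KI. Umod, named above, weighs heavily in the sum, with means of 894 CPM in KI and 2491 CPM in Hif1α KO kidneys. Of the 6 markers 4 were called higher than in KI in Hif1α KO, 1 in Hif2α KO and 5 in DKO kidneys, beside the shares of all tested genes given above.

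Of the receptors and ligands that the marker proteins meet, 7 of 14 tested rose and 2 fell in KI kidneys, beside 31.6% and 29.3% of all tested genes. Cd44, an osteopontin receptor, rose from 4.25 ± 0.913 to 71.8 ± 14.9 CPM, Itgb3, a subunit of an osteopontin-binding integrin, from 5.01 ± 1.46 to 59.4 ± 7.15 CPM, and Trem2, a receptor of macrophages that binds clusterin, from 0.781 ± 0.0339 to 8.28 ± 0.666 CPM. Lrp2 (megalin), which takes NGAL back up from the filtrate, fell from 4886 ± 532 to 314 ± 16.2 CPM. In DKO relative to KI kidneys Itgb3 fell by 1.21 and Slc22a17, another NGAL receptor, rose by 0.40 on the log2 scale, and the third called, the integrin gene Itgb5 (named after its value was seen), rose by 0.36. In Hif1α KO kidneys Havcr2, a relative of Havcr1 on leukocytes, rose by 0.91. Of all tested genes 5.44% passed in Hif1α KO kidneys, and 6.53% rose and 6.19% fell in DKO kidneys.

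Among 18 tested keratins and junction proteins outside the 10 markers, 8 rose, 3 fell and 7 did not pass in KI kidneys. Of all tested genes 31.6% rose and 29.3% fell in that comparison. Krt14 (0.660 ± 0.334 to 3.00 ± 1.32 CPM) and Krt5 (4.59 ± 1.08 to 16.8 ± 13.2 CPM), basal keratins, rose. Krt10, a keratin of cornified skin, fell from 5.17 ± 0.526 to 1.36 ± 0.431 CPM and the envoplakin gene Evpl from 60.3 ± 12.0 to 21.6 ± 4.55 CPM. Krt5 is also in the urothelial list. Against KI kidneys 0 of the list passed in either single KO, and in DKO kidneys Evpl rose by 0.85 and the plakophilin gene Pkp2 fell by 0.30. Of all tested genes 5.44% passed in Hif1α KO and 1.39% in Hif2α KO, and 6.53% rose and 6.19% fell in DKO kidneys.

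Of 8 other members of the SOX family tested, 3 rose and 4 fell in KI kidneys, where 31.6% of all tested genes rose and 29.3% fell. Sox4, active in epithelial repair and tumours, rose from 29.8 ± 4.84 to 134 ± 9.03 CPM. The scarce Sox8 rose from 0.524 ± 0.272 to 2.25 ± 0.484 CPM, and Sox6 fell from 56.8 ± 8.55 to 25.4 ± 1.71 CPM. Sox17, an endothelial factor, fell from 15.9 ± 1.98 to 8.85 ± 1.87 CPM and was higher than in KI in Hif1α KO (log2 0.63) and DKO kidneys (0.75). It was the 1 member called in each of these, where 5.44% of all tested genes passed in Hif1α KO, and 6.53% rose and 6.19% fell in DKO kidneys.

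Transcription factors that act on these markers, with their feedback targets, moved mostly upward in KI kidneys. Of 18 tested 17 were higher, where 31.6% of all tested genes were, and 1 was lower, where 29.3% were (Yap1, named after its value was seen, at 104 to 116 CPM in Cre(−) and 79.1 to 88.9 CPM in KI kidneys, whose TPM ranges overlapped). Ankrd1 and Ccn1, targets of the Hippo pathway, rose from 2.48 ± 0.769 to 63.3 ± 1.52 CPM and from 15.7 ± 4.86 to 71.4 ± 4.32 CPM. Socs3, the feedback inhibitor of STAT3, rose from 3.93 ± 0.552 to 50.5 ± 11.4 CPM, and Tnfaip3, the feedback inhibitor of NF-κB, from 7.11 ± 0.811 to 37.1 ± 9.42 CPM. Against KI, Ankrd1 fell by 0.87 in Hif1α KO and Stat3 by 0.42 in DKO kidneys on the log2 scale, each the 1 member called there. In Hif2α KO kidneys 0 of the list passed. The shares of all tested genes were 5.44% in Hif1α KO and 1.39% in Hif2α KO, with 6.53% higher and 6.19% lower in DKO kidneys.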

How the data were processed

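Poly(A) RNA of 17 mouse kidneys was sequenced with a stranded kit, and each kidney is 1 library and 1 replicate. The authors trimmed reads with Trim Galore 0.6.6 and cutadapt 2.5, aligned them with STAR 2.7.9a per the labels, and deposited RSEM expected counts and TPM values for 119353 transcripts, none of which were pooled. GRCm38 was taken as the build, since the transcript names matched GENCODE M21 for 116770 (97.8%) of them, and the rest were left out. The labels also name a human build.

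Expected counts were summed to 35971 genes, rounded to whole numbers and tested with edgeR 4.0.16 (R 4.3.3) by its quasi-likelihood F test in 1 fit of all 17 libraries, with TMM scaling and filterByExpr at a minimum count of 10, which kept 17011 genes. Adjusted p-values are Benjamini-Hochberg over those genes, with 0.05 as the threshold. The members and gene lists were chosen with earlier results of these data known. From each gene list the text names up to 4 genes for KI against Cre(−), and up to 2 for other comparisons, that passed the test with the widest change and reached a mean of 1 TPM in either group. Alternatives were DESeq2 1.42.0, DESeq2 size factors, no filter on low counts, only the groups compared, a replicate block, limma 3.58.1 on log2(TPM + 1) or log2(TPM + 0.1), either pair of Cre(−) mice, and each library left out. The relations with cell type sums and the keratin ratio over all 13 kidneys with Cre, also after subtraction of group means, were chosen after the data were seen, and their permutation tests used scipy 1.17.1 with 100000 resamples or exact enumeration. Tables were made with Python 3.11.15 and pandas 2.3.3, and figures with matplotlib 3.10.9. On simulated data for KI against Cre(−) over 17011 genes the edgeR step called 183 genes, of which 3.83% were false, and recovered 97% of 4-fold and 79% of 2-fold changes, whereas 15.9% of the calls of the DESeq2 step were false. The simulation changed only a small set of well-counted genes and drew its counts from edgeR's own dispersion estimates. The real comparison called 5381 genes higher and 4981 lower, so these rates need not hold there and do not rank edgeR over DESeq2 on these data. Library totals of 16504419 to 24668827 expected counts bear on the precision, and p-values weigh a difference or relation against the variation between these mice.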

Additional observations from a re-analysis of the deposited data

Results flagged for a closer look

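Krt18 in Cre(−) replicate 4 stood at 31.6 CPM, above the other 3 Cre(−) kidneys, whose values were 20.7, 22.2 and 20.7 CPM, by a gap that exceeded Dixon's 95% critical value for 4 samples. It was 1 of 20 sets of 4 values examined this way, and chance gives about 1 in 20. The same kidney had the highest urothelial sum of the Cre(−) group (48.2 CPM), and the part of that in the Krt18 value was not tested.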

How the results depend on the processing

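The counts of markers called against Cre(−) kidneys stayed at 9 or 10 of 10 in every alternative run, with 1 call lost in Hif2α KO (Clu) in the fit with the replicate block (adjusted p = 0.0566 by edgeR), with the Hif1α-floxed Cre(−) pair alone (0.0616) and in the leave-one-out fits given above. Against KI kidneys, DESeq2 called 1 marker in Hif1α KO (Clu) where edgeR's test called 0. For DKO, 3 markers were called, 0 in a fit of the 2 groups alone, 1 (Vcam1) with the replicate block and 0 to 3 when a library was left out, Krt20 being the 1 called without KI replicate 1 or DKO replicate 3 and Sox9 without KI replicate 2. DESeq2 called 1 (Krt20) both for Hif1α KO against Hif2α KO and for DKO against Hif1α KO, where edgeR called 0. The cause was not tested, except that fits of fewer libraries have fewer residual degrees of freedom. Replicate numbers gave no sign of pairing the mice, since of 31 same-numbered pairs 4 correlated above 0.1 (median -0.034) and 3 libraries correlated best with their own number. With groups of 3 or 4 mice this check could miss a weak pairing. With the block, Havcr1 in Hif1α KO against KI became 0.012, Krt19 there -0.018 and Lcn2 in DKO against KI 0.032, each a change of sign. With limma on TPM, Havcr1 in Hif1α KO became 0.011 or 0.015 and Lcn2 in DKO 0.13. When a library was left out the sign changed within these ranges, none with a call. Clu in KI against Cre(−) ran from -0.084 to 0.19. In Hif1α KO against KI, Havcr1 ran from -0.45 to 0.13, Krt19 from -0.22 to 0.42 and Krt20 from -0.048 to 0.55. In Hif2α KO against KI, Havcr1 ran from -0.12 to 0.46, Lcn2 from -0.53 to 0.56, Krt19 from -0.080 to 0.64 and Spp1 from -0.051 to 0.22. In DKO against KI, Lcn2 ran from -0.34 to 0.57, Krt19 from -0.13 to 0.51 and Spp1 from -0.055 to 0.14. Of 1118 gene values under an alternative, 1057 kept their direction and their side of the threshold. The median of all genes rose against Cre(−) by 0.35 to 0.45 on log2(TPM + 1) and by 0.45 to 0.56 on log2(TPM + 0.1), and on the former limma called 8843 genes higher and 2458 lower in KI kidneys, against 5381 and 4981 by edgeR on counts. A covariate for sex could not be fitted and was not run.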
